A study of Mus musculus with 8 samples.

Results

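A set of 7 histone variant genes, *H3f3a*, *H3f3b*, *H2afz*, *H1f0*, *Hist1h1t*, *Hist1h2ba* and *Hist1h2aa*, were taken by name from the gene table, which lists 54532 genes, and all 7 were present. They were followed in mRNA-seq libraries of whole testes, 1 library per mouse, in which spermatogenesis had been synchronized in neonatal pups with a WIN compound, an inhibitor of retinoic acid (RA) synthesis, followed by an RA injection. The testes were collected 11.5 days after RA, when the most advanced germ cells of the synchronized wave are pachytene spermatocytes. The 4 *Sync-Spdya fl/fl* mice carried loxP sites around exon 2 of *Spdya* and no Cre, and the 4 *Sync-Spdya cKO* mice carried the same alleles with *Ddx4-CreERT2*, a Cre expressed in germ cells and activated by tamoxifen. All 8 mice, on a C57BL/6J background, received RA and tamoxifen, the latter at 7.5 and 8.5 days after RA. The comparison asked whether loss of SPDYA, an activator of CDK2, altered these transcripts. Because the controls lacked Cre, an effect of CreERT2 itself and one of the deletion cannot be told apart.

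Histone variants replace the canonical histones that are made at DNA replication, and are used where chromatin is remodelled outside S phase. In spermatocytes, H1T, encoded by *Hist1h1t*, takes the place of much of the somatic linker histone, and the core histones TH2B (*Hist1h2ba*) and TH2A (*Hist1h2aa*) stand in for canonical H2B and H2A. *H3f3a* and *H3f3b* encode the same protein, H3.3, which is deposited independently of replication and accumulates on the sex chromosomes in pachytene. *H2afz* encodes H2A.Z, found next to promoters, and *H1f0* encodes H1.0, a linker histone of differentiated or slowly dividing cells. Transcripts of the clustered genes, those named *Hist1* to *Hist4*, usually end in a stem-loop in place of a poly(A) tail, whereas those of *H3f3a*, *H3f3b*, *H2afz* and *H1f0* are known to be polyadenylated.

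The libraries held between 13978342 and 19583091 fragments assigned to genes. *Sync-Spdya fl/fl* replicate 1 stood apart, with 0.464% of its fragments on mitochondrial genes against 2.97% to 3.39% in the other 3 controls and 2.20% to 3.74% in the *Sync-Spdya cKO* libraries, and results that rest on it are given with and without it. *Spdya* itself ranged from 19.7 to 23.8 FPKM (fragments scaled by gene length and by the library's total) in controls and from 17.7 to 30.5 FPKM in *Sync-Spdya cKO* libraries. That level covers the whole gene and not exon 2 alone, so it does not check the genotype labels. Summed over 6 pachytene markers, among them *Hspa2*, *Ldhc* and *Piwil1*, the libraries held 831 to 1353 FPKM in controls and 644 to 997 FPKM in *Sync-Spdya cKO* testes. Sums over 6 spermatogonia markers averaged 221.8 ± 4.03 FPKM in *Sync-Spdya cKO* and 191.3 ± 27.5 FPKM in controls (SD, n = 4 each). Those over 6 leptotene and zygotene markers averaged 192.4 ± 36.3 and 185.3 ± 21.0 FPKM, and the ranges overlapped in both lists. Of 6 round spermatid markers, 5 were below 1 FPKM on average. Among 6 Sertoli cell markers, *Clu*, a secreted chaperone, held most of the sum, with 718 to 940 FPKM in controls and 991 to 1188 FPKM in *Sync-Spdya cKO* testes, whereas the other 5 markers summed to 100 to 138 and 108 to 137 FPKM (*Clu* was set apart after its values were seen). Summed markers of Leydig, peritubular myoid, macrophage and endothelial cells were higher on average in *Sync-Spdya cKO* testes, at 30.9 ± 6.94 against 20.2 ± 8.66, 83.7 ± 13.3 against 59.6 ± 12.7, 7.23 ± 1.04 against 5.13 ± 1.21 and 9.85 ± 1.21 against 6.70 ± 2.50 FPKM (SD, n = 4 each), with ranges that overlapped in all 4. Most of the Leydig sum was *Hsd3b1*, at 11.2 FPKM in controls and 20.2 FPKM in *Sync-Spdya cKO* on average. *Acta2* held most of the myoid sum, at 49.5 and 72.8 FPKM. Means of *Insl3* (0.576 and 0.572 FPKM) and *Tagln* (0.86 and 0.71 FPKM) were lower in *Sync-Spdya cKO*. The other markers of these lists had higher means.

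The 7 genes form 2 sets, those outside and those inside the histone clusters. *H3f3b*, *H2afz*, *H3f3a* and *H1f0* averaged 367.4, 109.7, 55.65 and 20.76 FPKM over the 8 libraries, and *Hist1h2ba*, *Hist1h1t* and *Hist1h2aa* averaged 2.037, 0.4726 and 0.371 FPKM. Neighbours in that order were 3.35-fold, 1.97-fold and 2.68-fold apart down to *H1f0*, and their ranges over libraries did not overlap. *Hist1h2ba* exceeded *Hist1h1t* in 8 of 8 libraries although their ranges met, and *Hist1h1t* exceeded *Hist1h2aa* in 5 of 8 libraries, so the order of the lowest pair was not set. FPKM is scaled per gene length, but that scaling corrects neither for transcripts without a poly(A) tail nor for gene models without untranslated parts, so levels are compared within each set and not between the sets. Inside the clusters the models also differ. That of *Hist1h1t* has 52 and 230 untranslated bases, and those of *Hist1h2ba* and *Hist1h2aa* have 0. In control 1 *Hist1h1t* had 4 fragments and *Hist1h2ba* 3, so the FPKM order of the clustered genes is a description only. The clustered variants *Hist1h1t*, *Hist1h2ba* and *Hist1h2aa* had 0 to 20 fragments a library, beside abundant pachytene markers. These libraries therefore hold little signal for the variants typical of spermatocytes, which does not measure how strongly the genes were expressed.

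**Figure D1:**
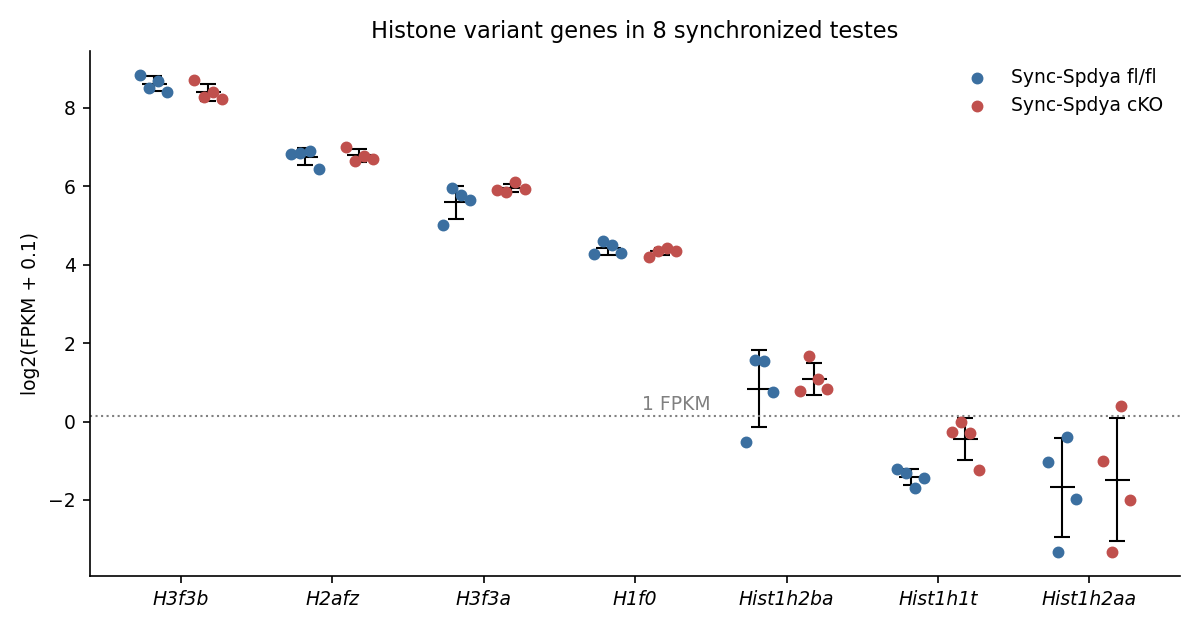
Level of each of the 7 histone variant genes as log2(FPKM + 0.1), 1 point per mouse, in *Sync-Spdya fl/fl* (blue) and *Sync-Spdya cKO* (red) testes. Black bars are means ± SD of 4 mice and the dotted line marks 1 FPKM. The 3 clustered genes lie below the other 4, on few fragments, and in all 7 the groups overlap.

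None of the 7 genes separated the groups. Of the 5 that passed the filter of a mean above 1 FPKM in both groups, 0 passed an adjusted p of 0.05 in limma and 0 passed an unadjusted p of 0.05, against 0.0165% and 10.9% of the 12141 genes tested (5.89% higher and 5% lower in *Sync-Spdya cKO* at the unadjusted threshold). With limma voom on recovered fragments both counts were also 0. The 4 control and 4 *Sync-Spdya cKO* values overlapped in all 7 genes, whereas they did not overlap in 6.24% of the genes tested, 3.64% higher and 2.59% lower in *Sync-Spdya cKO*. The estimates for the 5 genes ran from -0.22 to 0.36 on the log2 scale with a median of 0.03, beside a median of 0.0097 over all genes tested.

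**Figure D2:**
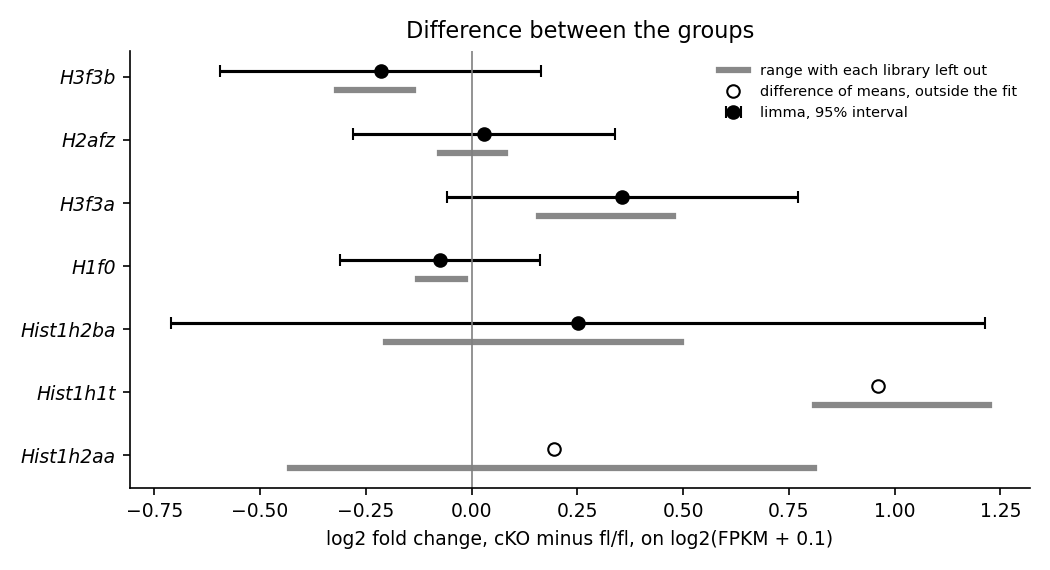
Difference of each gene in *Sync-Spdya cKO* from the controls, on log2(FPKM + 0.1). Filled circles are limma estimates with 95% intervals, open circles are differences of group means for the 2 genes below the filter, and grey bars span the estimates obtained when each library is left out in turn. All 5 intervals include 0, and that of *Hist1h2ba* is the widest, from -0.71 to 1.21.

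*Hist1h1t* (ENSMUSG00000036211, chr13:23695814-23696725 of GRCm38, plus strand, 1 exon of 912 bases) is the gene whose group means lay furthest apart. It stood at 0.335, 0.302, 0.210 and 0.268 FPKM in controls 1 to 4 and at 0.735, 0.893, 0.715 and 0.323 FPKM in *Sync-Spdya cKO* mice 1 to 4. Of the 4 *Sync-Spdya cKO* values 3 lay above every control, and the value of replicate 4 lay below that of control 1 only. The means were 0.279 ± 0.0531 and 0.667 ± 0.242 FPKM (SD, n = 4 each), a 2.39-fold higher level in *Sync-Spdya cKO*, and the mean difference of 0.96 on the log2 scale gave p = 0.0571 in a two-sided exact permutation test, whose smallest possible p is 0.0286. In a limma fit without the filter on low values the unadjusted p was 0.00691 and the adjusted p was 0.323. Without *Sync-Spdya cKO* replicate 4 the permutation p was 0.0286 and the log2 difference 1.22. That library is the only one of its group not above every control, so leaving it out separates the groups by construction. Leaving out control 1, the library with few mitochondrial fragments, also ended the overlap, with a log2 difference of 1.03. With any library but *Sync-Spdya cKO* replicate 4 left out the permutation p was 0.0571 to 0.0857, and the log2 difference was 0.81 without *Sync-Spdya cKO* replicate 2.

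Few fragments lie behind these values. The controls held 3 to 5 *Hist1h1t* fragments each, 16 in all, and the *Sync-Spdya cKO* libraries held 5 to 13, 42 in all. Pooled, this gives 0.277 FPKM (95% Poisson interval 0.159 to 0.450) and 0.665 FPKM (0.480 to 0.900), intervals that cover counting error and not the difference between mice. The intervals do not meet, but the per-mouse test missed the threshold. In whole testis, fewer cells that express a gene and less RNA per cell cannot be told apart. The summed pachytene markers were lower on average in *Sync-Spdya cKO* testes, at 799 ± 147 against 1138 ± 221 FPKM (SD, n = 4 each), opposite in direction to *Hist1h1t*. The ranges of these sums overlapped. Among the 6 markers the group means of *Ldhc* lay furthest apart in FPKM, at 313 against 524, and those of *Pgk2* were close, at 4.64 against 4.68. The means of the somatic marker sums were higher, through *Clu* in the Sertoli list, with *Hsd3b1* and *Acta2* holding most of the Leydig and myoid sums. The part of these marker sums in the *Hist1h1t* values was not tested.

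The stem-loop is shown because it sets *Hist1h1t* apart from the polyadenylated variants. The conserved letters of the histone stem-loop, 16 bases with a loop of 4, were searched on the transcribed strand, and the match in the *Hist1h1t* transcript lies 29 bases after the stop codon and 185 bases before the annotated end, with the loop in capitals.
Hist1h1t stem-loop: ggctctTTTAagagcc
These letters occur in 89 of the 55341 genes of GENCODE vM21 (0.161%), in 44 of 70 genes named *Hist1* to *Hist4*, and in *Hist1h1t* alone among the 7 variants. The absence of the letters from *Hist1h2ba* and *Hist1h2aa* is not informative, since both gene models hold 0 untranslated bases. Across the 67 protein-coding clustered histone genes in the table, 12 had a mean above 1 FPKM, 6 had no fragment in any library, the median was 0.19 FPKM, and *Hist1h2bc*, an H2B gene, was highest at 8.46 FPKM. Their summed level was 42.2 to 67.4 FPKM a library. The labels name an mRNA-seq kit, and its part in the low level of clustered genes was not tested.

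*Hist1h2ba* and *Hist1h2aa* lie head to head on chromosome 13, 305 bases apart. *Hist1h2ba* (ENSMUSG00000050799) occupies chr13:23933773-23934156 on the minus strand with 384 bases, and *Hist1h2aa* (ENSMUSG00000060081) occupies chr13:23934462-23934851 on the plus strand with 390 bases, each in 1 exon. Both models contain the coding sequence only, so fragments in the untranslated parts were not counted for either gene. The RefSeq windows of 250 bases before to 50 after the start (GRCm38.p6) share 220 bases, and the *Hist1h2ba* window is shown because it holds the sequence that both genes face. Capitals mark 4 motifs searched on both strands, the box CCAAT, the octamer ATTTGCAT, the TATA box letters TATAAA, and the letters TGACGT of the cyclic AMP response element.
Hist1h2ba, chr13:23934107-23934406, minus strand: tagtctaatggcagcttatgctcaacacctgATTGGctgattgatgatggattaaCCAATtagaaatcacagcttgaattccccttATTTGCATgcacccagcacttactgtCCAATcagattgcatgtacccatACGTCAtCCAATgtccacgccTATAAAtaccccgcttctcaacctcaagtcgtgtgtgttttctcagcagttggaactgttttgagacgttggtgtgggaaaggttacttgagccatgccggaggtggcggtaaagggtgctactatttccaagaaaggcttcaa
The window held CCAAT 4 times and each of the other 3 motifs once. Over 32851 RefSeq promoters, the share with at least 1 match was 37.4% for CCAAT, 1.74% for the octamer, 13.6% for TATAAA and 7.51% for TGACGT. The overlapping *Hist1h2aa* window held the same numbers except for TATAAA, with 2 matches.

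The *Hist1h2ba* transcript, for TH2B, had the highest FPKM of the 3 clustered variants. It measured 0.596, 2.87, 2.83 and 1.59 FPKM in controls and 1.61, 3.10, 2.01 and 1.69 FPKM in *Sync-Spdya cKO* mice, on 3 to 20 fragments a library. The lowest and the second highest of the 8 values were both controls. Means were 1.97 ± 1.09 and 2.10 ± 0.687 FPKM (SD, n = 4 each), and the log2 fold change of 0.25 had a standard error of 0.43 and a limma adjusted p of 0.874. Its direction rested on control 1, the library with few mitochondrial fragments, because without it the estimate was -0.20. The 95% interval of the difference, -0.71 to 1.21, leaves room for changes of either sign.

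*Hist1h2aa*, for TH2A, was at the edge of detection. Controls stood at 0.391, 0, 0.656 and 0.156 FPKM, and *Sync-Spdya cKO* mice at 0.397, 0, 1.22 and 0.151 FPKM. Replicate 2 of both groups had no fragment, and the other 6 libraries had between 1 and 8. The group totals of 7 and 12 fragments gave means of 0.301 ± 0.286 and 0.441 ± 0.542 FPKM (SD, n = 4 each), and the log2 difference of 0.20 had p = 0.914 in the two-sided exact permutation test. A difference was not detectable at this depth, and its sign changed without control 2 (-0.35) or without *Sync-Spdya cKO* replicate 3 (-0.43). The log2 ratio of *Hist1h2aa* to *Hist1h2ba* differed by -0.056 between the groups, with 0.1 added to each FPKM. This difference is undetermined: the larger group SD was 1.84, and leaving out 1 library gave values from -0.848 (without control 2) to 0.753 (without *Sync-Spdya cKO* replicate 2).

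**Figure D3:**
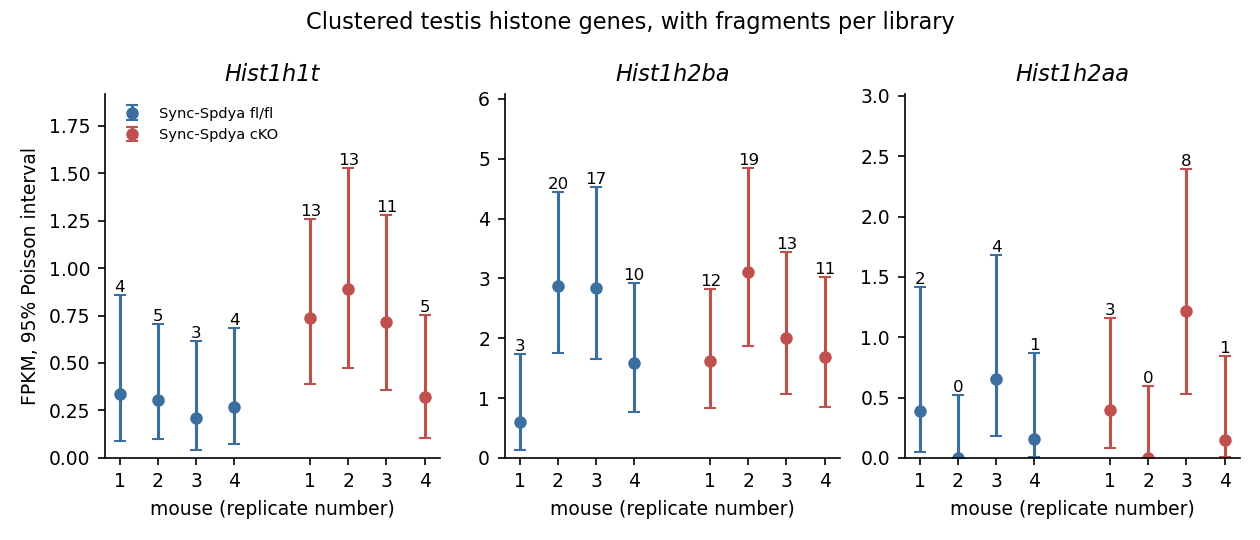
FPKM of *Hist1h1t*, *Hist1h2ba* and *Hist1h2aa* in each mouse, with exact 95% Poisson intervals for counting error and the number of fragments above each bar (blue, *Sync-Spdya fl/fl*; red, *Sync-Spdya cKO*; vertical scales differ). *Hist1h1t* has 11 to 13 fragments in 3 *Sync-Spdya cKO* mice and 3 to 5 elsewhere, while *Hist1h2aa* has 0 to 8 and no separation.

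The H3.3 genes rested on many fragments, 14792 to 24123 a library for *H3f3b* and 1466 to 4044 for *H3f3a*. *H3f3b* (ENSMUSG00000016559, chr11:116021912-116027962, minus strand) has 2976 bases of exon and *H3f3a* (ENSMUSG00000060743, chr1:180800832-180813943, minus strand) has 3504. Although both encode H3.3, their coding sequences of 411 bases differ at 95 positions (76.9% identity), of which 81 are at codon position 3. The first 120 coding bases are shown, from GENCODE vM21 transcripts, because fragments can be told apart only where the genes differ; the 24 differing bases are in capitals.
H3f3a: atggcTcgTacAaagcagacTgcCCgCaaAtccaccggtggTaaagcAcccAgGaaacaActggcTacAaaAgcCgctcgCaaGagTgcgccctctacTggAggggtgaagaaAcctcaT
H3f3b: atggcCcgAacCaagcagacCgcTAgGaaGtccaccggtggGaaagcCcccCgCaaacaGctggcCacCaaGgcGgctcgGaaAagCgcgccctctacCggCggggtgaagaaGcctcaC

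*H3f3b* was one of the most abundant transcripts of the testis, at rank 31 of the 12141 genes tested by mean FPKM. It measured 460.5, 363.6, 411.9 and 341.5 FPKM in controls and 418.1, 311.3, 336.1 and 296.6 FPKM in *Sync-Spdya cKO* mice. The 3 lowest of the 8 values were *Sync-Spdya cKO*, but replicate 1 of that group was the second highest. Means were 394 ± 53.0 and 341 ± 54.2 FPKM (SD, n = 4 each), with a log2 fold change of -0.22 (standard error 0.17, 95% interval -0.59 to 0.16, limma adjusted p = 0.708). The estimate was -0.32 without *Sync-Spdya cKO* replicate 1 and -0.14 without control 1. Replicate 1 was the only *Sync-Spdya cKO* value among the controls, so the overlap ended when that library was left out.

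The *H3f3a* estimate had the opposite sign and did not pass the test. Controls stood at 31.9, 61.8, 54.6 and 49.8 FPKM and *Sync-Spdya cKO* mice at 59.5, 58.2, 68.3 and 61.0 FPKM. Control 1 was by far the lowest, and control 2 lay within the *Sync-Spdya cKO* range. Means were 49.5 ± 12.7 and 61.8 ± 4.50 FPKM (SD, n = 4 each), with a log2 fold change of 0.36 (standard error 0.19, 95% interval -0.06 to 0.77, limma adjusted p = 0.542). The estimate was 0.16 without control 1 and 0.48 without control 2. Control 2 was the only control within the *Sync-Spdya cKO* range, so the overlap ended when that library was left out. Near-identical copies may share *H3f3a* fragments: the processed pseudogene *H3f3a-ps1* on chromosome X averaged 13.98 FPKM, *H3f3c* 4.50 FPKM and *H3f3a-ps2* 1.67 FPKM. On the opposite strand *H3f3a* overlaps *Gm17275* (4.79 FPKM) and *H3f3aos* (1.21 FPKM), and whether the counting used strand is not given in the sources used here.

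Of the H3.3 transcript level, most came from *H3f3b*. Its share of the summed FPKM of both genes was 93.5%, 85.5%, 88.3% and 87.3% in controls and 87.5%, 84.2%, 83.1% and 82.9% in *Sync-Spdya cKO* mice. Of the *Sync-Spdya cKO* shares 3 lay below all controls and 1 lay among them. The share was 88.6 ± 3.46% in controls and 84.5 ± 2.13% in *Sync-Spdya cKO* (SD, n = 4 each), a difference of -4.18 percentage points, or -2.56 without control 1. The summed level was 443.9 ± 44.6 and 402.3 ± 54.0 FPKM, a difference smaller than the SD of either group.

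**Figure D4:**
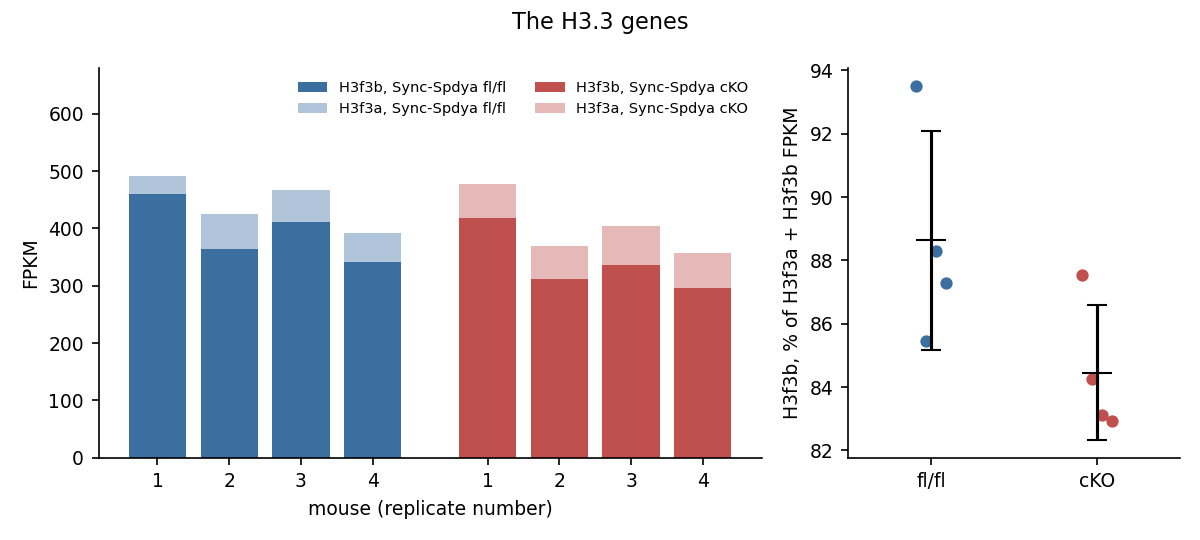
Left, FPKM of *H3f3b* (solid) and *H3f3a* (pale) stacked for each mouse. Right, the share of *H3f3b* in their sum, in percent, with 1 point per mouse and mean ± SD of 4 mice; the vertical axis starts above 0. Control 1 has the highest share, 93.5%, and *Sync-Spdya cKO* replicate 1 (87.5%) lies among the controls.

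The promoters of the H3.3 genes differed in the motifs searched, and are shown because the genes encode the same protein. The part of the promoters in the different transcript levels was not tested. Both promoters are RefSeq windows of GRCm38.p6 on the minus strand, with the motifs above and GGGCGG (GC box) in capitals. Each window lies inside the gene model that gave the FPKM. The models reach upstream to 180813943 for *H3f3a* and 116027962 for *H3f3b*, so each window covers 1 RefSeq start and not the upstream end of the model. Adjacent GC boxes overlap in *H3f3a*.
H3f3a, chr1:180813556-180813855: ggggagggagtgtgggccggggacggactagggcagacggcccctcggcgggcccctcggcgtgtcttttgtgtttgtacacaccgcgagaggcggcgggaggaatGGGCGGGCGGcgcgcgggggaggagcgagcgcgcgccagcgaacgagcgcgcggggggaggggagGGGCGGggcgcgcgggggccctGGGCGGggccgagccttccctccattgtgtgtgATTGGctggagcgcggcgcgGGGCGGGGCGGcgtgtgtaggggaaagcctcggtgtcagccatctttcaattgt
H3f3b, chr11:116024455-116024754: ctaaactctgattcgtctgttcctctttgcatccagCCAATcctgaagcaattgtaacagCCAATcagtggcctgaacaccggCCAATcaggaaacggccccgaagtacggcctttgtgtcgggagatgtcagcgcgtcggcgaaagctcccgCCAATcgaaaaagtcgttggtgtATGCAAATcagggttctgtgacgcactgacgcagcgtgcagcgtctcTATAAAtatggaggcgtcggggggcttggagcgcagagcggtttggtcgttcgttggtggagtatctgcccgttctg
*H3f3a* held 6 GC boxes and 1 CCAAT, and its window was 74.0% G or C. *H3f3b* held 4 CCAAT, 1 octamer and 1 TATAAA with no GC box, and was 55.0% G or C. GGGCGG was present in 35.7% of the 32851 promoters. A match describes letters and not a bound factor.

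*H2afz* (ENSMUSG00000037894, chr3:137864487-137866922, plus strand), for H2A.Z, had the smallest difference between the groups. It measured 112.5, 115.7, 119.8 and 87.1 FPKM in controls and 129.1, 100.6, 108.8 and 104.3 FPKM in *Sync-Spdya cKO* mice. Both the lowest value, control 4, and the highest, *Sync-Spdya cKO* replicate 1, lay away from the rest, and the groups overlapped. Means were 109 ± 14.8 and 111 ± 12.7 FPKM (SD, n = 4 each). The log2 fold change was 0.03 (standard error 0.14, 95% interval -0.28 to 0.34, limma adjusted p = 0.958).

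*H1f0* (ENSMUSG00000096210, chr15:79028450-79030504, plus strand, 1 exon of 2055 bases), for H1.0, had the narrowest interval. It measured 19.1, 24.1, 22.4 and 19.7 FPKM in controls and 18.4, 20.4, 21.5 and 20.4 FPKM in *Sync-Spdya cKO* mice. All *Sync-Spdya cKO* values but the lowest lay within the control range. Means were 21.3 ± 2.36 and 20.2 ± 1.32 FPKM (SD, n = 4 each), with a log2 fold change of -0.08 (standard error 0.11, 95% interval -0.31 to 0.16, limma adjusted p = 0.845). The antisense gene *Gm49544*, at 0.839 FPKM, overlaps it. The log2 FPKM ratio of the linker histone genes *Hist1h1t* and *H1f0* was -6.27 ± 0.37 in controls and -5.01 ± 0.67 in *Sync-Spdya cKO* (SD, n = 4 each). The ranges overlapped. Because these genes belong to different sets, the ratio compares the groups only and not the level of *Hist1h1t* with that of *H1f0*. It rests on 3 to 13 *Hist1h1t* fragments a library.

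The genes around these variants, in lists of related function, also held 0 genes with an adjusted p of 0.05 in limma. Among 20 other histone variants, 10 were tested. Beside 10.9% of all genes tested, 1 of the 10 passed an unadjusted p of 0.05. This was *H2bfm*, an H2B variant, at 1.85 FPKM in controls and 3.37 FPKM in *Sync-Spdya cKO*, a log2 estimate of 0.86 with a standard error of 0.23 and a limma adjusted p of 0.230. *Cenpa*, the centromeric H3, had a log2 fold change of 0.50 (limma adjusted p = 0.546), and 5 of the 20 were listed at 0. Of the 5 somatic linker histone genes 2 were tested, *Hist1h1c* at -0.12 and *Hist1h1a* at 0.11 (limma adjusted p = 0.890 and 0.941).

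The genes that deposit the variants were all above the filter. All 9 genes of H3.3 deposition were tested, with a median log2 fold change of -0.02 and 0 at an unadjusted p of 0.05, and the lowest p fell to *Ubn2* at -0.17 and *Ubn1* at -0.15, partners of the HIRA chaperone (limma adjusted p = 0.675 and 0.721). The 11 genes that place or remove H2A.Z had a median of -0.10 and again 0 past that threshold, led by *Znhit1* at -0.42 and *Vps72* at 0.19, both of the SRCAP complex (limma adjusted p = 0.572 and 0.677). Of 12 other histone chaperones 11 had estimates below 0, with a median of -0.12, beside 5832 of the 12141 genes (48.0%) and a median of 0.0097 over all genes. Several were close to 0, and after rescaling to TPM, tried after seeing the data, 8 of the 12 and 32.6% of all genes were below 0. Of the 12, 2 passed an unadjusted p of 0.05, compared with 5% of all genes in that direction. These were *Chaf1a* at -0.38, of the replication-coupled chaperone CAF-1, and *Nasp* at -0.31, a carrier of H3 and H4 (limma adjusted p = 0.426 and 0.449).

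Of 9 genes of histone replacement in spermatids 4 were tested, with a median of -0.23. The chromatin remodeller *Chd5*, at -0.36, passed an unadjusted p of 0.05, beside 5% of all genes tested in that direction. *Brdt*, which binds acetylated histones, stood at -0.31 (limma adjusted p = 0.449 for *Chd5* and 0.472 for *Brdt*). Among 9 genes of histone mRNA 3′ end processing 8 were tested, with a median of -0.03 and 0 at an unadjusted p of 0.05. The lowest p went to *Lsm11* at -0.30 and *Lsm10* at 0.31, both subunits of the U7 particle that cuts clustered histone transcripts (limma adjusted p = 0.551 and 0.652).

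**Figure D5:**
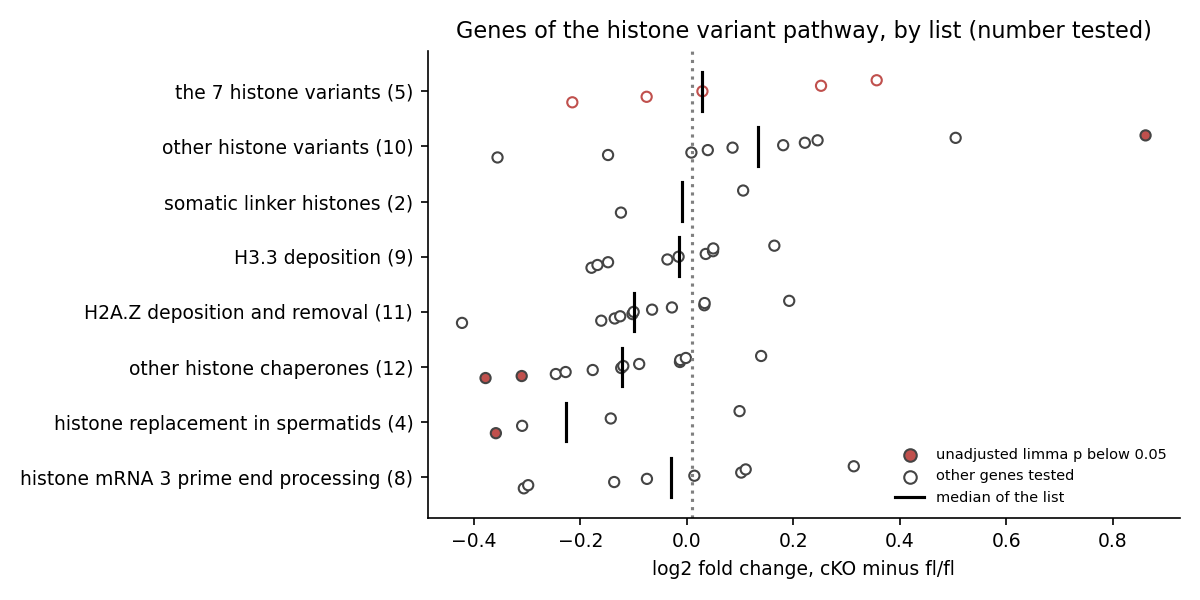
Log2 fold change in *Sync-Spdya cKO* relative to controls for every tested gene of each list, with the number tested in parentheses. Filled points passed an unadjusted limma p of 0.05, vertical bars are list medians and the dotted line is the median of all genes tested, 0.0097. Among the histone variants described here no point is filled, and 4 points are filled in the other lists. Over all genes tested, 10.9% passed that threshold.

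The genes nearest to each variant over the 8 libraries were taken by Pearson's r on log2(FPKM + 0.1). Each is the highest of the values for all genes tested over libraries that share group, depth and cell composition, so a high r is a description only, and r without control 1, computed after seeing the data, follows it in parentheses. *H3f3b* was nearest to *Nae1* at 0.998 (0.997) and *Dars* at 0.991 (0.986), and *H3f3a* to *Mif* at 0.995 (0.971) and *Mrpl44* at 0.989 (0.928). *H2afz* was nearest to *Actl9* at 0.976 (0.976) and *Vdac2* at 0.974 (0.974), and *H1f0* to *Epb41l4a* at 0.955 (0.948) and *Gorasp1* at 0.942 (0.935). *Hist1h2ba* was nearest to *Zfp953* at 0.984 (0.964) and *C8g* at 0.978 (0.921), *Hist1h2aa* to *Dcun1d4* at 0.933 (0.935) and *Snu13* at 0.901 (0.902), and *Hist1h1t* to *Fastkd2* and *S100a13* at 0.898 each (0.896 each). Among the variants themselves, the highest r was that of *H3f3a* with *Hist1h2ba*, 0.798, which rested on control 1 and was 0.10 without it. *H3f3b* with *H2afz* had 0.607 (0.693), *Hist1h2ba* with *H1f0* 0.654 (0.705), and *H3f3a* with *H3f3b* -0.628 (-0.191).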

How the data were processed

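FPKM per gene and library were deposited by the authors, who aligned paired-end mRNA-seq reads to GRCm38 (mm10) through a sequencing provider's pipeline; the strand setting is not given in the sources used here. FPKM multiplied by gene length came out as whole fragments for 100% of values above 0 (tolerance 0.02), which gave depth, counting intervals and a voom alternative. The main test was limma 3.58.1 (R 4.3.3) on log2(FPKM + 0.1), which understates changes of low genes, over protein-coding genes with a mean above 1 FPKM in both groups, with Benjamini-Hochberg adjustment over all 12141; 5 of the 7 genes passed, and *Hist1h1t* and *Hist1h2aa* were given exact permutation tests. The ratio of *Hist1h2aa* used 0.1 FPKM because the gene is at 0 in 2 libraries. Libraries of a group are separate mice. The genes and lists were chosen with earlier results of these data known. Named genes were the 7, the 2 with the lowest limma p in each list, the 2 with the highest Pearson r with each, and copies found by name. The script was tested on simulated data. Alternatives changed the pseudocount, filter, biotypes, scaling, weights, test, replicate block and each library in turn. Sequences came from RefSeq (7 of 7 matched) and GENCODE vM21, in which all 7 had the coordinates of the table.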

Additional observations from a re-analysis of the deposited data

Results flagged for a closer look

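The mitochondrial share of control replicate 1, 0.4645% of fragments, lay far below the 2.97% to 3.39% of the other 3 controls by Dixon's test of the gap to the nearest library. It was the only one of 20 groups of 4 libraries tested, over the 7 genes and the library measures, and chance gives about 1 in 20. The same library had the lowest *H3f3a* (31.9 FPKM), the highest *H3f3b* (460.5 FPKM) and the lowest *Hist1h2ba* (0.596 FPKM) of the 8.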

How the results depend on the processing

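The count of genes at an adjusted p of 0.05 was 0 under every alternative run. *Hist1h1t* stayed higher in *Sync-Spdya cKO* in all of them and passed the permutation test (p = 0.0286) after centring on the autosomal median (log2 difference 0.98) and after rescaling to TPM (1.18); leaving out 1 library gave 0.81 to 1.22. With TPM *H1f0* turned to 0.00297, and with array weights, lowest for control 1 (0.161), *Hist1h2ba* was -0.14 and *H2afz* -0.063. Leaving out 1 library gave -0.20 to 0.50 for *Hist1h2ba*, -0.43 to 0.81 for *Hist1h2aa* and -0.074 to 0.080 for *H2afz*, with a change of sign in each, and 0.16 to 0.48 for *H3f3a*, -0.32 to -0.14 for *H3f3b* and -0.13 to -0.01 for *H1f0*. The count at an unadjusted p of 0.05 was 1 with no filter (*Hist1h1t*) and 0 to 1 without 1 library, and the count without overlap was 1 after centring or TPM (*Hist1h1t*) and 0 to 1 without 1 library. The shares of all genes at an unadjusted p of 0.05 and without overlap, 10.9% and 6.24% in the main comparison, were not computed for these alternatives. These counts are therefore descriptions only. The log2 ratio of *Hist1h1t* to *H1f0* differed by 1.26 between groups, or 0.443 with 1 FPKM added. The causes were not tested. TPM moved the median of all genes to 0.0882. *Hist1h1t* and *Hist1h2aa* gave no value with array weights, voom, all biotypes or a mean above 5 FPKM, nor *Hist1h2ba* with the last.

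The replicate numbers were not taken as pairing, because the labels give only a number. Correlations of same-numbered libraries ran from 0.0757 to 0.406, with 1 of 4 under 0.1, and those of the other pairs from -0.474 to 0.162. Of the 8 libraries, 5 correlated best with their own number. Whether the number marks shared handling was not tested. With the replicate block the calls were the same, *H3f3a* at 0.36 (unadjusted limma p = 0.0560) and *Hist1h1t* at 0.96 (exact permutation p = 0.125, the smallest 4 pairs allow). For the 3 clustered variants depth limits what can be seen.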
